A study of Mus musculus with 15 samples.

Results

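The 10 marker genes of the alveolar type 1 (AT1) cell were followed through 15 mouse RNA sequencing libraries. The 10 genes were listed by name, and each was found by its Ensembl identifier among the 54838 gene identifiers of the tables. As its series text puts the question, the study asked how lung epithelium near metastases, and the cancer cells themselves, differ in their transcripts. Sorted lung epithelial cells, titled by the surface protein EpCAM, came from BALB/c lungs 7 days after tail vein injection of 800000 4T1 cells of a labelling line, and each epithelial replicate pooled 5 lungs. The libraries formed 5 groups of 3. The first was niche epithelium that carries the treatment label shSox9. The second was niche epithelium with the treatment label control. The third was epithelium of the distal lung, also labelled control. The last groups were 4T1 cells, a BALB/c mammary carcinoma line, taken back from lungs at 7 days (in vivo) and from culture dishes (in vitro). The labels do not give which cells received the hairpin against Sox9, and all 3 epithelial groups came from lungs that held 4T1 cells.

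AT1 cells are the thin, flat cells that cover most of the alveolar surface and carry gas exchange. In adult mouse lung new AT1 cells can arise from alveolar type 2 (AT2) cells, the cuboidal cells that make surfactant, and cells on that path pass through a transitional state with high keratin 8. Their identity depends on the lung transcription factor NKX2-1 and on the YAP and TAZ coactivators acting through TEAD factors. The genes followed here include a receptor and a glycoprotein of the AT1 surface (Ager, Pdpn), channel proteins (Aqp5, Clic5), membrane organisers (Cav1, Emp2), cytoplasmic scaffolds (Akap5, Rtkn2), a nuclear cofactor (Hopx) and a secreted binding protein (Igfbp2).

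Because 9 of the 10 genes were lower together in niche than in distal epithelium, promoters are shown for Ager and Akap5, which were also higher under the shSox9 label, for Pdpn, the gene outside that pattern, and for the inner Hopx start, which holds the motif match. The windows are from RefSeq on GRCm38.p6 and run along the gene's strand, with 250 bases before and 50 after each annotated start. RefSeq windows matched 9 of the 10 genes in 12 windows, and Rtkn2 had none. The motifs searched, on both strands, were GGAATG (reverse complement CATTCC) for TEAD factors and CACTTG (reverse complement CAAGTG) for NKX2-1. Capitals mark a match, so that a run with no capitals holds neither motif.
Ager, chr17:34597600-34597899, plus strand: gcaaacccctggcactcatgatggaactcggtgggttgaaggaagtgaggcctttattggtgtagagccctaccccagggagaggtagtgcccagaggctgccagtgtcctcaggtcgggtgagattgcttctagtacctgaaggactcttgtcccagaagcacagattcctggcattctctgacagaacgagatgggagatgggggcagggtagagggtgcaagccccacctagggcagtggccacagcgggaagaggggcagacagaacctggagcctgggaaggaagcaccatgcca
Akap5, chr12:76324641-76324940, plus strand: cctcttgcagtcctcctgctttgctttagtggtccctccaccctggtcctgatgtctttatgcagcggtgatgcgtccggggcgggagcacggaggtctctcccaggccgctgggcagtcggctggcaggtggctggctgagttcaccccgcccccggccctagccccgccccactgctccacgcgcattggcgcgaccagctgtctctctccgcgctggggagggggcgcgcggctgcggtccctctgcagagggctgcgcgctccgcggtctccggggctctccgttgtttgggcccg
Pdpn, chr4:143299515-143299814, minus strand: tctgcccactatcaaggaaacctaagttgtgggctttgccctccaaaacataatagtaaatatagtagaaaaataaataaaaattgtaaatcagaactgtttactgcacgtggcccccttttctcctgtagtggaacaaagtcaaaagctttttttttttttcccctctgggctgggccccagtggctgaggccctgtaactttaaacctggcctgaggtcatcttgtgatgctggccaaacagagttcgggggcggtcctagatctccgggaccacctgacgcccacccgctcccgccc
Hopx, inner start, chr5:77095218-77095517, minus strand: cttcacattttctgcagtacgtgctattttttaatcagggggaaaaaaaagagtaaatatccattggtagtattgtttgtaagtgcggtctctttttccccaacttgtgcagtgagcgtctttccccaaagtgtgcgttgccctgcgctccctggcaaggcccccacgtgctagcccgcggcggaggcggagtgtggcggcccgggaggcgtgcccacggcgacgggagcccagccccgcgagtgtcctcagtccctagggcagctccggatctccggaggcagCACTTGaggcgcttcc
The TEAD letters were in 0 of the 12 windows, and 14.7% of all 32851 RefSeq windows of that length hold them. The NKX2-1 letters were in 1 window, the inner one of Hopx, against 13.6% of all windows. A match is a string of letters and not a binding site, and the absence of a match concerns this window only.

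All 10 genes are protein coding in GENCODE M21 (GRCm38). Ager lies on chromosome 17 (34597862 to 34600936), Hopx on chromosome 5 (77086988 to 77115121), Pdpn on chromosome 4 (143267431 to 143299564) and Aqp5 on chromosome 15 (99590782 to 99594829). Cav1 lies on chromosome 6 (17306335 to 17341452), Rtkn2 on chromosome 10 (67979570 to 68059740) and Akap5 on chromosome 12 (76324891 to 76334153). Emp2 lies on chromosome 16 (10281749 to 10313968), Clic5 on chromosome 17 (44188584 to 44280172) and Igfbp2 on chromosome 1 (72824503 to 72852474). Hopx, Cav1 and Rtkn2 overlap a gene on the other strand, and without a stated strand setting the reads of such a pair cannot be told apart. The overlapping genes Hopxos, Gm15581 and Gm16212 had at most 10.19, 2 and 7.52 expected counts in any library.

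Depth ranged between 15907316 and 30421705 counts per library. A gene with no count could still have had up to 3, which is 0.0986 to 0.189 counts per 1000000 (CPM) and covers counting error only. The 12 AT2 genes came to 71900 to 120000 summed TPM (transcripts per 1000000, a level scaled for transcript length) in shSox9 niche epithelium, 21900 to 29000 in niche epithelium and 342000 to 406000 in distal epithelium. Sox9 itself averaged 58.7 ± 22.7 CPM in the libraries labelled shSox9 and 48.9 ± 14.9 CPM in niche libraries (SD, n = 3 each), a log2 fold change of 0.26 (SE 0.27, adjusted p = 0.55 by edgeR). The Sox9 RNA thus did not average lower under the label. With all 15 libraries scaled together, Sox9 averaged 312 ± 49.2 CPM in 4T1 cells in vivo, against 50.5 ± 15.5 CPM in niche libraries. The part of 4T1 cells in the niche values of Sox9 was not tested. These values thus do not show whether Sox9 differed in the epithelial cells, and "shSox9" below repeats the label only. A share of 4T1 transcripts was estimated from 14 genes chosen after seeing the data, with at least 20 CPM in every 4T1 library and at most 1 CPM in every distal library. Relative to 4T1 cells in vivo, these genes came to 16.6% ± 4.50 in shSox9 niche libraries, 20% ± 4.04 in niche libraries and 1.17% to 1.39% in distal libraries. The choice did not exclude genes that other niche cells make, so this share can overstate the 4T1 part. The shSox9 and niche shares differed by -3.43 percentage points (two-sided p = 0.4 by an exact permutation test, where 3 against 3 libraries cannot go below 0.1). The shSox9 share was lower in all 3 pairs that share a replicate letter, at 21% against 23%, 16.7% against 21.6% and 12% against 15.4%, and an exact permutation test within pairs gave p = 0.25, the smallest that 3 pairs allow. With the planned panel of 1 gene, limited to 0.2 CPM in distal libraries, it was lower in 2 of the 3 pairs.

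**Figure D1:**
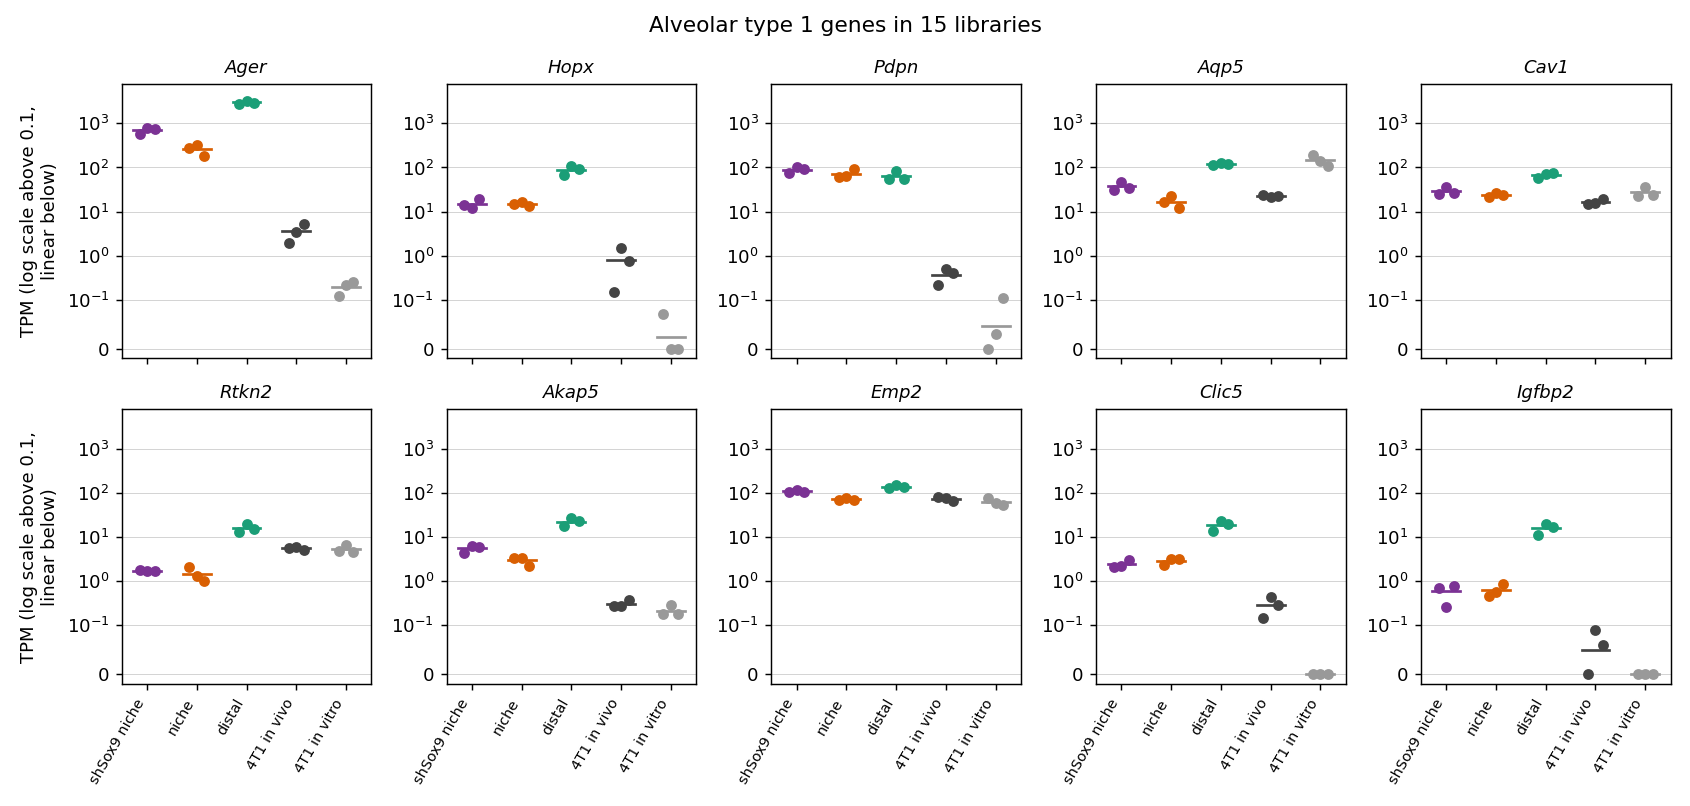
TPM of the 10 AT1 genes in every library, by group, on an axis that is logarithmic above 0.1 and linear below (points: libraries; bars: means of 3). Ager spans 181 to 316 TPM in niche epithelium and 2802 to 3258 TPM in distal epithelium, whereas Pdpn overlaps between all 3 epithelial groups.

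Measured per length, Ager was the highest of the 10 genes in all 9 epithelial libraries. The 10 genes summed to 844 to 1119 TPM in shSox9 niche epithelium, 399 to 531 TPM in niche epithelium and 3284 to 3889 TPM in distal epithelium. Ager alone made up 69.5% to 72.1% of that sum in shSox9 niche epithelium, 45.2% to 59.5% in niche epithelium and 83.8% to 85.3% in distal epithelium. In 4T1 cells the sum was smaller and had another composition, at 121 to 128 TPM in vivo with Emp2 highest, and 190 to 301 TPM in vitro with Aqp5 highest.

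Niche epithelium was then set against distal epithelium, which asks how AT1 transcripts differ near the metastases. In all, 9 of the 10 AT1 genes were lower in niche epithelium (edgeR quasi-likelihood test, Benjamini-Hochberg adjusted p at most 1.6e-06 for each of the 9), between 2.89-fold for Emp2 and 39.9-fold for Igfbp2, and Pdpn did not pass the test. Among all 17640 genes tested, 25.8% were called lower, 28.5% higher and 54.3% in either direction. The median log2 fold change of the 10 was -3.42, against 0.0226 over all genes tested. For 9 of the 10 the niche and distal libraries did not overlap, as for 64.3% of all genes tested. In bulk libraries, fewer AT1 cells and less AT1 RNA per cell cannot be told apart.

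Ager, the receptor for advanced glycation end products and an abundant protein of the AT1 membrane, stood at 212, 247 and 147 CPM in niche epithelium, against 3506, 3641 and 3580 CPM in distal epithelium. Every niche library was far below every distal library. Its log2 fold change was -4.15 (SE 0.21, adjusted p = 1.3e-07 by edgeR), 17.7-fold lower in niche epithelium.

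Podoplanin, encoded by Pdpn, is a mucin-type glycoprotein of the AT1 surface that lymphatic endothelial cells and some fibroblasts also carry. It stood at 64.5, 66.9 and 102.3 CPM in niche epithelium, against 94.4, 124.5 and 91.1 CPM in distal epithelium. The groups overlapped, because niche replicate 3 lay among the distal values. The log2 fold change was -0.41 (SE 0.20, adjusted p = 0.1 by edgeR). This call depended on the setting, and 8 of the 15 alternatives kept both the sign and the call. Among those that passed were the fits without niche replicate 3, at -0.65 (edgeR adjusted p = 0.012), and with upper-quartile scaling, at -0.52 (0.046). The fits without the filter on low counts, at -0.39 (0.035), and with only the 6 libraries compared, at -0.49 (0.041), passed too. On the log2(TPM + 1) scale the sign turned to 0.16 (limma adjusted p = 0.5).

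Relative to Ager in TPM, Pdpn was at 0.226, 0.201 and 0.516 in the niche, against 0.0200, 0.0254 and 0.0189 in distal epithelium, so that the 2 surface markers were in a different proportion in every niche library. Markers of cells that can also carry Pdpn differed between the groups too. The 5 lymphatic endothelial genes summed to 22.5 to 44.7 TPM in niche epithelium and 6.89 to 28.3 TPM in distal epithelium, with none at 0 in either group. Of them 3 were called higher, among them Lyve1, also made by some macrophages, at a log2 fold change of 2.25 (edgeR adjusted p = 1.3e-05). Prox1, which defines lymphatic endothelium, was at 0.595 ± 0.497 CPM in niche epithelium and 0.577 ± 0.446 CPM in distal epithelium (SD, n = 3 each). The 8 fibroblast genes summed to 4670 to 5210 TPM in niche epithelium and 1490 to 2030 TPM in distal epithelium, with 5 higher and 1 lower. Their part in the Pdpn values was not tested.

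Aqp5, the water channel of the AT1 apical membrane, had 9.28, 13.1 and 6.70 CPM in niche epithelium, against 115.5, 118.5 and 116.7 CPM in distal epithelium. The distal libraries were tightly grouped, and the niche libraries were all at least several-fold below them. The log2 fold change was -3.58 (SE 0.22, adjusted p = 3.5e-07 by edgeR). Clic5, an actin-associated protein of the chloride intracellular channel family, had 8.26, 11.4 and 11.9 CPM in niche epithelium, against 77.1, 120.0 and 110.5 CPM in distal epithelium. Its log2 fold change of -3.29 (SE 0.23, adjusted p = 7.8e-07 by edgeR) was larger than the spread between replicates in both groups.

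The 2 membrane organisers had the smallest called differences. Cav1, the scaffold of caveolae, which endothelial cells and fibroblasts also make, had 29.8, 39.7 and 33.2 CPM in niche epithelium, against 131.5, 154.5 and 144.0 CPM in distal epithelium. The difference on the log2 scale was -2.06 (SE 0.14, adjusted p = 7.1e-07 by edgeR), with no overlap. Emp2, a tetraspan membrane protein, had 146.8, 158.5 and 147.7 CPM in niche epithelium, against 435.1, 442.3 and 430.9 CPM in distal epithelium. It differed by -1.53 on the log2 scale (SE 0.10, adjusted p = 3.7e-07 by edgeR).

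Of the scaffolds, Akap5, which anchors protein kinase A near the membrane, had 12.2, 13.1 and 9.36 CPM in niche epithelium, against 114.2, 154.7 and 138.7 CPM in distal epithelium. It was 11.7-fold lower in niche epithelium (log2 fold change -3.55, SE 0.19, adjusted p = 1.3e-07 by edgeR). Rtkn2 had 3.19, 2.22 and 1.81 CPM in niche epithelium, against 36.5, 48.4 and 38.8 CPM in distal epithelium. Its log2 fold change was -4.08 (SE 0.21, adjusted p = 1.3e-07 by edgeR), close to that of Ager.

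Hopx, a homeodomain protein that does not bind DNA itself, had 9.19, 10.7 and 9.04 CPM in niche epithelium, against 72.2, 102.7 and 93.7 CPM in distal epithelium, a log2 fold change of -3.21 (SE 0.20, adjusted p = 3.9e-07 by edgeR). Igfbp2, a secreted binding protein of insulin-like growth factors that marks mature AT1 cells in mouse, had the largest log2 fold change of the 10 by edgeR on the counts as deposited. It had 0.341, 0.392 and 0.664 CPM in niche epithelium, against 13.5, 21.6 and 19.8 CPM in distal epithelium. These niche values rest on 8, 9 and 11 counts. This was a log2 fold change of -5.32 (SE 0.41, adjusted p = 1.6e-06 by edgeR). On the log2(TPM + 1) scale Ager differed more, at -3.59, against -3.38 for Igfbp2.

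The size of these differences depended on the scale more than their calls did. On the log2(TPM + 1) scale the median gene stood 0.48 higher in niche epithelium, and the split over all genes was 9212 higher and 2397 lower by limma, against 5025 higher and 4554 lower by edgeR. All 9 genes stayed lower there, with Emp2 at -0.93, Cav1 at -1.46 and Clic5 at -2.34.

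Beyond the 10, a wider list of 24 AT1 genes had 19 lower, 0 higher and 5 not called in niche epithelium, with a median log2 fold change of -3.00. Among the largest were Sec14l3 at -5.50, Cyp2b10, a cytochrome P450, at -5.37, Col4a3, a basement membrane collagen chain, at -4.58, and Scnn1g, a subunit of the epithelial sodium channel, at -4.39 (edgeR adjusted p at most 2.6e-06 for each). The abundant genes Timp3 (-0.51, edgeR adjusted p = 0.053) and Ahnak (-0.26, 0.14) did not pass the test.

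The 10 regulators of AT1 fate had 5 lower, 1 higher and 4 not called in niche epithelium. Nkx2-1 averaged 7.68 ± 2.08 CPM in niche epithelium and 155 ± 3.82 CPM in distal epithelium (SD, n = 3 each), a log2 fold change of -4.32 (edgeR adjusted p = 1.3e-07). The pioneer factors Foxa1 and Foxa2 were lower by -4.10 and -4.35, and Gata6 by -2.36 (edgeR adjusted p at most 6.6e-06). The Hippo pathway members Yap1 and Tead1 had log2 fold changes of -0.27 and -0.09 (edgeR adjusted p = 0.068 and 0.62), so neither passed. The gene called higher was Wwtr1, which encodes TAZ and is named after its value was seen, at 0.34 (edgeR adjusted p = 0.026).

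Of the 9 genes of caveolae, a list that also holds Cav1, 5 were lower, 2 were higher and 2 were not called. Cav2 was lower by -1.01, Cavin2 by -1.21 and Pacsin3 by -1.17 (edgeR adjusted p at most 0.00032), all less than Cav1. Pacsin2 did not pass (-0.15, edgeR adjusted p = 0.23), nor did Cav3 (0.33, 0.28).

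Genes of the transitional alveolar state moved otherwise. Of 18, 11 were higher, 4 were lower and 3 were not called in niche epithelium. Fosl1, an AP-1 factor, was higher by 3.45, Cldn4, a tight junction claudin, by 2.99, and Plaur, the urokinase receptor, by 2.50 on the log2 scale (edgeR adjusted p at most 9.8e-05). Itgb6, an integrin subunit, was lower by -2.57 (9.8e-07). Krt8, the keratin that names the state, averaged 364 ± 140 CPM in niche epithelium and 234 ± 37.3 CPM in distal epithelium (SD, n = 3 each) and did not pass (edgeR adjusted p = 0.069). The same 18 genes summed to 11000 to 12000 TPM in 4T1 cells in vivo, above both epithelial groups. With all 15 libraries scaled together, Fosl1 averaged 346 CPM in 4T1 cells in vivo and 46.2 CPM in niche epithelium, and Krt8 1590 and 376 CPM. Plaur averaged 275 and 145 CPM, and Cldn4 172 and 119 CPM. Of the 18, 10 were called higher in 4T1 cells in vivo than in niche epithelium, 4 lower and 4 neither. Among all genes tested there, 28.9% were called higher, 36.0% lower and 64.8% in either direction. The part of 4T1 cells in these niche values was not tested.

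**Figure D2:**
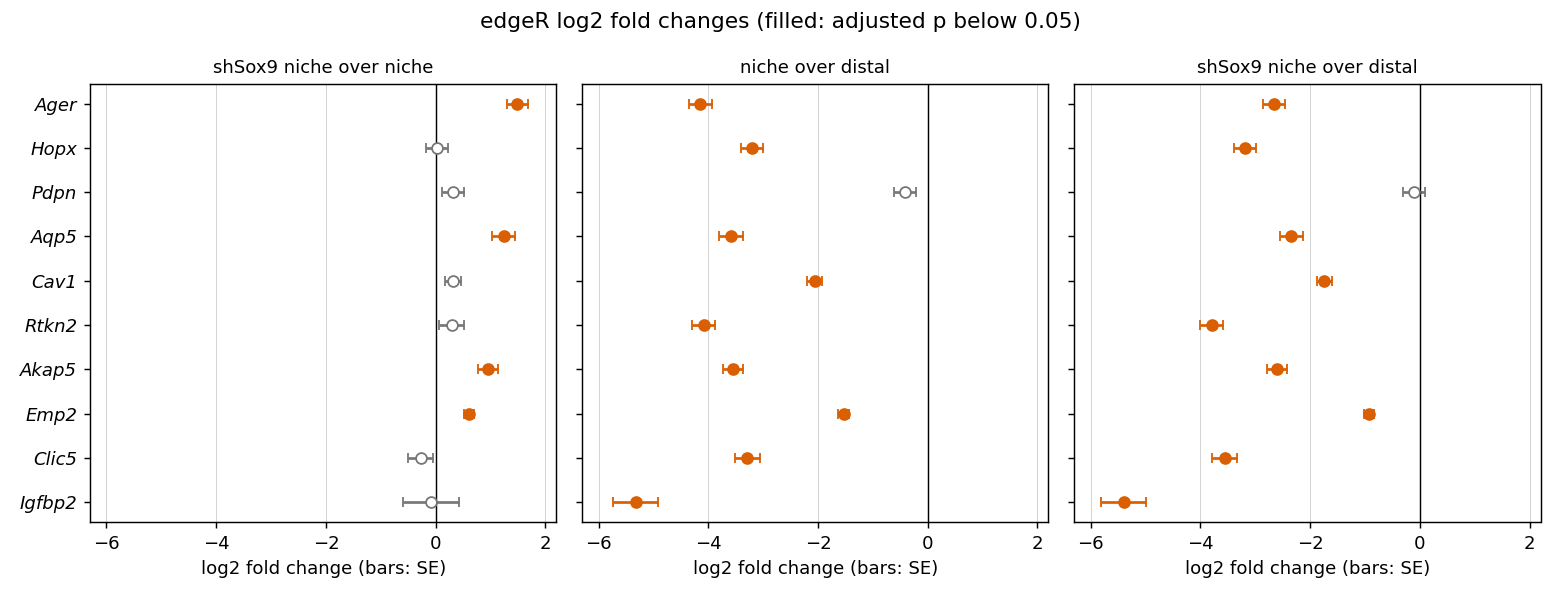
Log2 fold changes of the 10 AT1 genes between epithelial groups by edgeR (points: estimates; bars: SE; filled: adjusted p below 0.05). The called genes, 9 in number, lie left of 0 in niche over distal epithelium, and Ager, Aqp5, Akap5 and Emp2 lie right of 0 in shSox9 niche over niche epithelium.

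Other cell types' markers differed between these groups as well. All 12 AT2 genes were lower in niche epithelium, with a median log2 fold change of -4.11 and Sftpc, the surfactant protein made by AT2 cells alone, at -4.56 (edgeR adjusted p = 7.6e-07). The AT1 genes therefore stood lower alongside the AT2 genes. Of the 9 leukocyte genes 6 were higher and 2 lower, with sums of 2090 to 2350 TPM in niche epithelium and 249 to 423 TPM in distal epithelium. Of 10 endothelial genes 1, Plvap, was higher (1.08, edgeR adjusted p = 0.002) and none was lower, with sums of 101 to 111 TPM in niche epithelium and 39.8 to 65.8 TPM in distal epithelium. No marker of these 2 lists was at 0 in either group. Their part in the AT1 values was not tested.

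**Figure D3:**
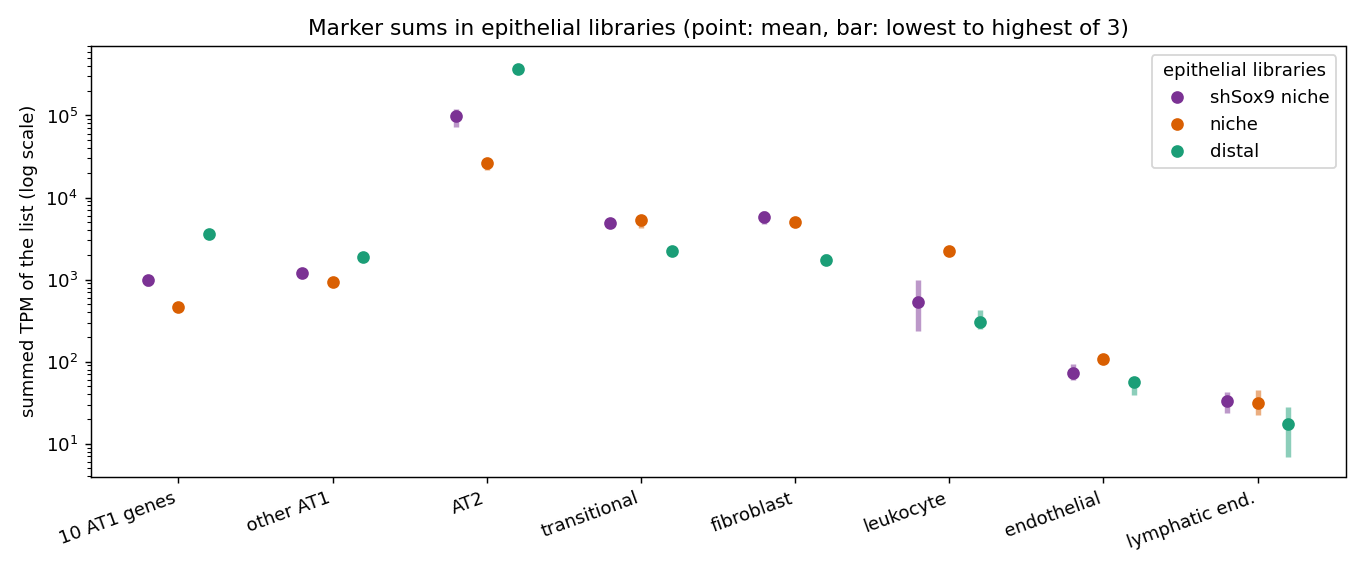
Summed TPM of marker lists in the epithelial libraries on a logarithmic axis (points: means; bars: lowest to highest of 3 libraries). The 10 AT1 genes and the AT2 genes are highest in distal epithelium, whereas fibroblast genes lie between 4670 and 5210 TPM in niche epithelium, against 1490 to 2030 TPM in distal epithelium.

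The share of 4T1 transcripts differs between the AT1 genes in what it could contribute. Multiplying each gene's 4T1 level in vivo by the 4T1 share of the 14 genes, which can be too high, gave 69.1% to 95.3% of the Rtkn2 value in niche libraries. The same product was 17.9% to 25.6% for Emp2, 16.6% to 24.6% for Aqp5 and 11.8% to 18.6% for Cav1. It was at most 3.01% for the other 6 genes. The planned panel held 1 gene and gave smaller products, 0% to 30.0% for Rtkn2, 0% to 11.1% for Emp2, 0% to 10.7% for Aqp5 and 0% to 8.07% for Cav1 in niche libraries, and 0% for each gene in shSox9 niche libraries. With the part from the 14 genes subtracted, the log2 fold change of Rtkn2 between niche and distal epithelium was -6.01 (edgeR adjusted p = 1.1e-05), against -4.23 with the planned panel and -4.08 without subtraction. That of Pdpn was 0.04 with the 14 genes (edgeR adjusted p = 0.89), and Igfbp2 was at -4.86, less than Rtkn2. For Ager, Hopx, Pdpn, Akap5, Clic5 and Igfbp2 the product was thus a few percent of the niche value at most with either panel.

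**Figure D4:**
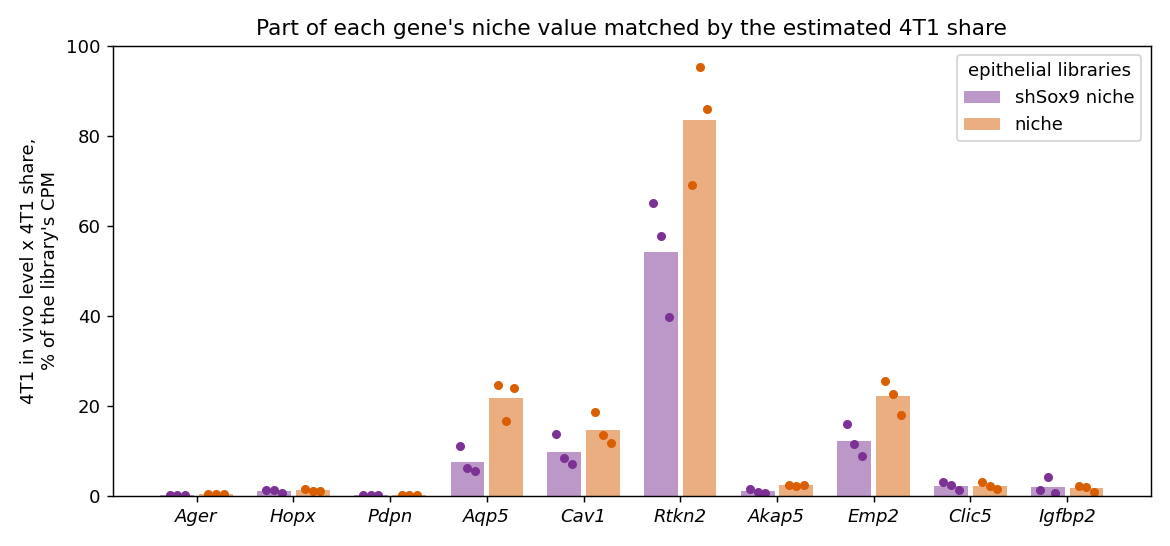
Product of each gene's level in 4T1 cells in vivo and the 4T1 share of a library by the 14 genes chosen after seeing the data, as a percentage of that library's CPM (bars: means; points: 3 libraries of each group). Rtkn2 stands out at 39.7% to 65.0% in shSox9 niche libraries and 69.1% to 95.3% in niche libraries, whereas the planned panel of 1 gene, not drawn, gave 0% in shSox9 niche libraries and 0% to 30.0% in niche libraries.

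The shSox9 niche libraries were compared with the niche libraries, which asks what differs under that label. Of the 10 AT1 genes, 4 were higher (Ager, Aqp5, Akap5 and Emp2; edgeR adjusted p at most 0.004), none was lower, and 6 did not pass the test. Among all genes tested, 9.68% were called higher, 10.8% lower and 20.5% in either direction. The median log2 fold change of the 10 was 0.315, against 0.0159 over all genes. The same 4 genes had no overlap between the libraries, as did 38.0% of all genes tested.

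Ager had 447, 616 and 644 CPM in shSox9 niche epithelium, against 212, 247 and 147 CPM in niche epithelium. Its log2 fold change was 1.49 (SE 0.19, adjusted p = 0.00046 by edgeR), or 2.82-fold. Aqp5 had 18.2, 27.7 and 23.5 CPM in shSox9 niche epithelium, against 9.28, 13.1 and 6.70 CPM in niche epithelium, a log2 fold change of 1.24 (SE 0.21, adjusted p = 0.0021 by edgeR). All 3 shSox9 libraries lay above all 3 niche libraries for both genes.

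Akap5 had 17.1, 25.2 and 25.1 CPM in shSox9 niche epithelium, against 12.2, 13.1 and 9.36 CPM in niche epithelium. On the log2 scale it was higher by 0.95 (SE 0.18, adjusted p = 0.004 by edgeR). Emp2 had 208.2, 245.7 and 238.6 CPM in shSox9 niche epithelium, against 146.8, 158.5 and 147.7 CPM in niche epithelium. The difference on the log2 scale was smaller, at 0.61 (SE 0.09, adjusted p = 0.0012 by edgeR). The groups did not overlap for either gene.

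Cav1 had 35.8, 49.3 and 43.3 CPM in shSox9 niche epithelium, against 29.8, 39.7 and 33.2 CPM in niche epithelium. The groups overlapped, and the log2 fold change was 0.32 (SE 0.14, adjusted p = 0.13 by edgeR). The letters of the 3 shSox9 and niche libraries pair them, and with the letter as a replicate block over all 9 epithelial libraries Cav1 passed the test (0.32, SE 0.09, adjusted p = 0.033 by edgeR). That block also covered the distal libraries, whose letters do not pair with these. Cav1 also passed without shSox9 replicate 1 (0.44, edgeR adjusted p = 0.034), and in 12 of the 15 alternatives it did not pass. Most of the 15 did not use the pairing, so this tally does not judge the paired result.

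The other 5 genes did not pass. Pdpn had 76.1, 105.2 and 108.1 CPM in shSox9 niche epithelium, against 64.5, 66.9 and 102.3 CPM in niche epithelium, a log2 fold change of 0.31 (SE 0.20, adjusted p = 0.3 by edgeR). Hopx had 8.73, 7.71 and 13.1 CPM in shSox9 niche epithelium, against 9.19, 10.7 and 9.04 CPM in niche epithelium, a log2 fold change of 0.02 (SE 0.20, adjusted p = 0.96 by edgeR). Rtkn2 (0.29, SE 0.22), Clic5 (-0.27, SE 0.23) and Igfbp2 (-0.08, SE 0.51) had adjusted p between 0.38 and 0.93 by edgeR. With the 4T1 part subtracted, Rtkn2 was at 1.45 by the 14 genes (SE 0.57, adjusted p = 0.089 by edgeR) and at 0.44 by the planned panel (SE 0.19, adjusted p = 0.13 by edgeR). With SEs of 0.20 to 0.51, differences of the size seen for Emp2 could be missed for some of these genes. Relative to Ager in TPM, Pdpn was at 0.127, 0.127 and 0.125 in shSox9 niche libraries, against 0.226, 0.201 and 0.516 in niche libraries.

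Of the 24 further AT1 genes, 13 were higher, 0 were lower and 11 were not called in shSox9 niche epithelium, with a median log2 fold change of 0.68. Cldn18, a claudin of alveolar tight junctions, averaged 236 ± 44.6 CPM in shSox9 niche epithelium and 60.9 ± 13.5 CPM in niche epithelium (SD, n = 3 each), a log2 fold change of 1.95 (edgeR adjusted p = 9.7e-05). Scnn1b, another sodium channel subunit, was higher by 1.57 (edgeR adjusted p = 0.0022). Of the 10 fate regulators 6 were higher and none was lower, with Nkx2-1 at 1.74 (edgeR adjusted p = 0.00036) and Gata6 at 0.95 (0.011). Of the 9 caveola genes 2 were higher and 1 was lower, and Pacsin3 was higher by 0.47 (edgeR adjusted p = 0.015). Of the 18 transitional genes 1, Areg, which encodes an epidermal growth factor receptor ligand, was higher (0.93, edgeR adjusted p = 0.048) and 2 were lower, Lgals3, a galectin, by -1.26 (0.01).

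Markers of other cells moved with the shSox9 label too. Of the 12 AT2 genes 11 were higher and none was lower, with Sftpc and Slc34a2, a phosphate transporter, each at 2.11 (edgeR adjusted p at most 0.00056). Of the 9 leukocyte genes 6 were lower and 1 higher, and the list summed to 234 to 984 TPM in shSox9 niche epithelium and 2090 to 2350 TPM in niche epithelium. Of 10 endothelial genes 2 were lower, Cdh5 by -0.87 and Kdr by -1.11 (edgeR adjusted p at most 0.044), with sums of 59.5 to 92.6 TPM in shSox9 niche epithelium and 101 to 111 TPM in niche epithelium. The 8 fibroblast genes summed to 4800 to 6790 TPM in shSox9 niche epithelium and 4670 to 5210 TPM in niche epithelium, with 3 higher and none lower. No marker of these lists was at 0 in either group, and their part in the AT1 values was not tested. Over all genes the split was 1707 higher and 1909 lower with TMM scaling, and 2232 higher and 1601 lower with upper-quartile scaling.

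Set against distal epithelium, which the niche comparison also used as its control, shSox9 niche epithelium had 9 of the 10 AT1 genes lower (edgeR adjusted p at most 2.1e-05), beside 22.0% of all genes called lower, 21.7% higher and 43.8% in either direction. The 9 that did not overlap stand beside 52.8% of all genes. Ager was at -2.65, Rtkn2 at -3.79, Clic5 at -3.56, Hopx at -3.19 and Igfbp2 at -5.40. Akap5 was at -2.60, Aqp5 at -2.34, Cav1 at -1.74 and Emp2 at -0.92. Emp2 was at -0.34 on the log2(TPM + 1) scale (limma adjusted p = 0.0086), where the split over all genes was 8789 higher and 1962 lower, against 3833 higher and 3886 lower by edgeR, and the median gene stood 0.44 higher. With the 4T1 part subtracted, Rtkn2 was at -4.56 by the 14 genes and -3.79 by the planned panel. Pdpn was at -0.10 (SE 0.20, adjusted p = 0.72 by edgeR). The wider AT1 list had 20 of 24 genes lower, and no member was higher.

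The genes whose pattern over the 9 epithelial libraries was most like that of Ager were found from 12004 genes, by the root mean square difference of mean-centred log2(CPM + 1). Nkx2-1 came first, at 0.12, followed by Baiap2l1 at 0.13, Plekhb1 at 0.14, Ppp1r14c at 0.16 and Col4a4 at 0.18. Nkx2-1 averaged 25.9 ± 7.04 CPM in shSox9 niche epithelium, 7.68 ± 2.08 CPM in niche epithelium and 155 ± 3.82 CPM in distal epithelium (SD, n = 3 each). Of the AT1 genes themselves, Aqp5 was closest to Ager at 0.29 (rank 49) and Akap5 next at 0.34 (rank 75), and Pdpn was farthest at 1.60 (rank 2760). These likenesses describe 9 libraries that share 3 group levels and carry no test.

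Cancer cells taken from lungs were then set against cancer cells from culture. The level of most AT1 genes in 4T1 cells was low. Hopx, Pdpn and Igfbp2 were below the filter on low counts. Of the 7 genes tested, Ager and Clic5 were higher in vivo, Aqp5 and Cav1 were lower, and Rtkn2, Akap5 and Emp2 did not pass. Among all 14022 genes tested, 27.0% were called higher and 24.0% lower. Of the 10, 6 had no overlap between groups, 4 of them among the 7 tested, beside 60.7% of all genes tested.

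Aqp5 had the largest fall among them. It had 10.3, 9.84 and 10.99 CPM in vivo, against 89.3, 68.7 and 53.6 CPM in vitro, a log2 fold change of -2.76 (SE 0.18, adjusted p = 4.6e-06 by edgeR), 6.79-fold lower in vivo. Cav1 had 21.4, 24.5 and 29.9 CPM in vivo, against 35.99, 58.1 and 40.9 CPM in vitro, a log2 fold change of -0.84 (SE 0.19, adjusted p = 0.0047 by edgeR). The in vivo values of both genes lay below every in vitro value. Of the 9 caveola genes 8 were tested, of which 4 were lower, 2 were higher and 2 were not called. Cav2 (-1.18) and Cavin2 (-1.0) were lower (edgeR adjusted p at most 0.0013), as was Pacsin2 (-0.75, 0.00011), whereas Cavin3 (0.64, 0.0019) and Ehd2 (0.28, 0.028) were higher. Pacsin2, Cavin3 and Ehd2 are named after their values were seen.

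Ager rested on few reads, with 34, 58 and 87 counts in vivo and 2, 6 and 6 counts in vitro. The log2 fold change was 3.95 (SE 0.51, adjusted p = 0.00024 by edgeR). The ratio of summed counts was 17.0 (exact 95% counting interval 9.89 to 31.8). Clic5 had 66 counts in all in vivo and 0 in vitro, at least 29.3-fold higher if the in vitro group is set at 3 counts (edgeR adjusted p = 0.00072). Hopx had 34 counts in vivo and 1 in vitro, a ratio of 45.3 (7.60 to 1840), and Pdpn 25 and 4, a ratio of 8.33 (2.88 to 32.9). Igfbp2 had 2 and 0 counts, for which no fold is given. Even in vivo, Ager stood at 3.54 ± 1.62 TPM, against 3012 ± 230 TPM in distal epithelium (SD, n = 3 each).

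Lung markers differed between the 4T1 groups in the same direction as Ager. The 12 AT2 genes summed to 245 to 853 TPM in vivo and 56.0 to 73.0 TPM in vitro, with 7 of the 10 tested called higher and Sftpa1 higher by 5.74 on the log2 scale (edgeR adjusted p = 4.3e-05). Lyz2 had the largest change, at 11.47 (edgeR adjusted p = 0.00014), and the highest mean CPM of the list in vivo. It varied widely there, at 216 ± 249 CPM, against 61.5 ± 22.0 CPM for Sftpc and 9.96 ± 5.79 CPM for Sftpa1. The sum in vivo and its range thus rest in part on Lyz2. The leukocyte genes Laptm5 and Tyrobp also varied widely in vivo, at 14.2 ± 12.6 and 5.88 ± 6.6 CPM, whereas C1qa was at 1.54 ± 0.595 CPM. The part of leukocytes in the Lyz2 values was not tested. The highest of the list in vitro were Abca3, Etv5 and Lpcat1, which were not called. The 9 leukocyte genes summed to 34.0 to 133 TPM in vivo and 14.5 to 19.5 TPM in vitro, with 4 of them at 0 in vitro and none at 0 in vivo. Of the 8 endothelial genes tested, 7 were higher in vivo and 1 was lower. All 6 fibroblast genes and the 2 club cell genes tested were higher. The wider AT1 list was split, with 5 of 16 tested genes higher and 5 lower, and the 1 mesothelial gene tested was lower. The part of other lung cells in the Ager, Clic5, Hopx and Pdpn counts was not tested.

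Rtkn2 had 10.2, 10.3 and 9.59 CPM in vivo, against 9.51, 12.7 and 9.13 CPM in vitro, and did not pass (log2 fold change -0.06, SE 0.16, adjusted p = 0.76 by edgeR). Akap5 was at 0.49 (SE 0.36, adjusted p = 0.28 by edgeR). Emp2 had 179.1, 172.8 and 160.0 CPM in vivo, against 171.9, 139.2 and 129.4 CPM in vitro, a log2 fold change of 0.22 (SE 0.11, adjusted p = 0.14 by edgeR). Without in vitro replicate 1 it passed, at 0.33 (edgeR adjusted p = 0.026).

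The last 2 comparisons set 4T1 cells beside epithelium, in 1 fit over all 15 libraries, whose scaling gives slightly different CPM. In vivo 4T1 cells had 7 AT1 genes lower than niche epithelium (edgeR adjusted p at most 0.01), beside 36.0% of all genes called lower and 64.8% called in either direction, and 8 of the 10 did not overlap, beside 71.8% of all genes. Pdpn was at -7.63 and Ager at -6.18. Rtkn2 was higher, with 9.47, 9.47 and 9.01 CPM in 4T1 cells in vivo, against 3.30, 2.30 and 1.86 CPM in niche epithelium (log2 fold change 1.89, SE 0.20, adjusted p = 8.9e-07 by edgeR; 28.9% of all genes were called higher). Aqp5 (-0.07, edgeR adjusted p = 0.81) and Emp2 (0.02, 0.85) did not pass. Their levels overlapped between these groups.

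In vitro 4T1 cells had all 10 AT1 genes lower than distal epithelium (edgeR adjusted p at most 0.00047), beside 51.0% of all genes called lower, 30.5% higher and 81.5% in either direction. For all 10 the in vitro and distal libraries did not overlap, as for 82.4% of all genes tested. The median gene stood at -0.564 on the log2 scale, and the split over all genes was 5562 higher and 9297 lower by edgeR, against 7467 higher and 6792 lower by limma on log2(TPM + 1). Clic5 was at least 2220-fold lower and Igfbp2 at least 394-fold lower with the in vitro group set at 3 counts. Ager was at -14.32 and Akap5 at -7.31. Emp2 (-1.79), Cav1 (-1.88) and Rtkn2 (-2.19) differed less.

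Aqp5 was the exception among them, since its place depended on the scale. By counts it had 82.6, 65.0 and 49.7 CPM in 4T1 cells in vitro, against 125.2, 128.1 and 126.6 CPM in distal epithelium, a log2 fold change of -0.95 (SE 0.20, adjusted p = 0.00047 by edgeR). Per length it had 197, 139 and 109 TPM in 4T1 cells in vitro, against 111, 128 and 120 TPM in distal epithelium, and the groups overlapped. On the log2(TPM + 1) scale the sign turned to 0.27 (limma adjusted p = 0.27). The abundance-weighted length that the deposited tables give for Aqp5 was 758 to 807 bases in 4T1 libraries, 975 to 1111 bases in both niche groups and 1126 to 1151 bases in distal libraries. GENCODE lists 4 protein-coding Aqp5 transcripts, of 831, 1376, 1415 and 1797 bases, and 2 with a retained intron, of 443 and 1739 bases, and all 6 were in the tables. The lengths of the 4T1 libraries thus were below that of the shortest coding transcript and above that of the shorter retained-intron transcript, whereas those of the epithelial libraries were above the shortest coding transcript.

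**Figure D5:**
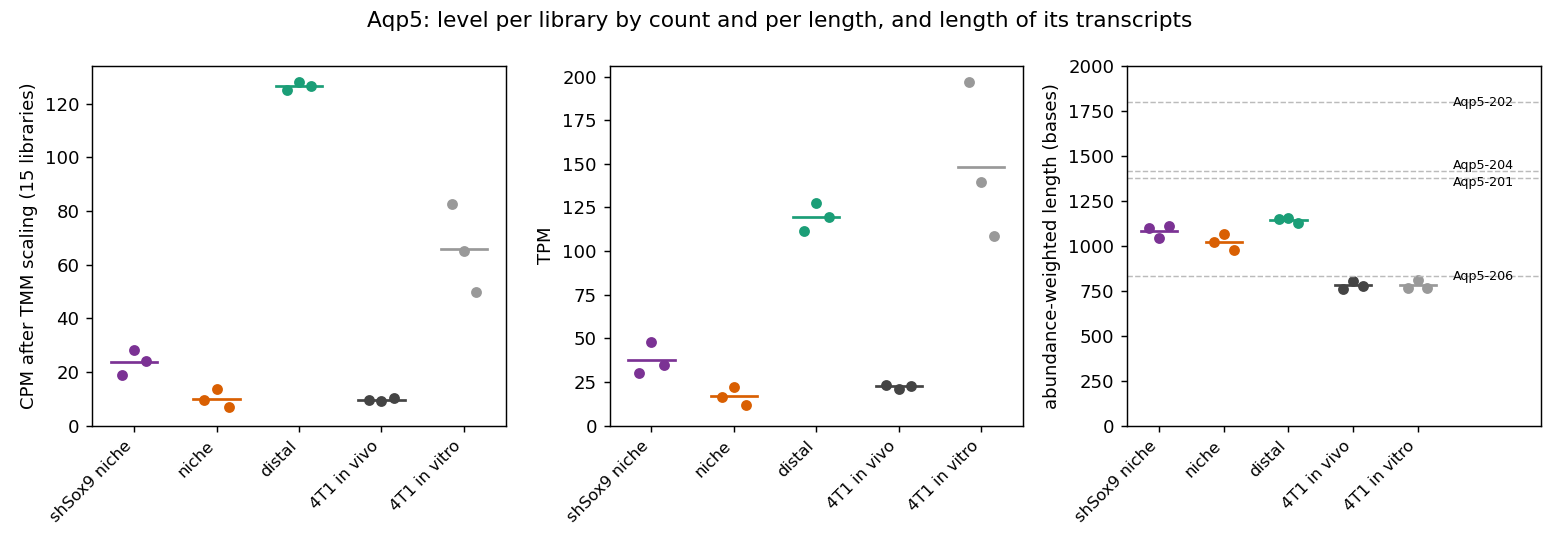
Aqp5 in every library as CPM, as TPM and as abundance-weighted transcript length (points: libraries; solid bars: means of 3; dashed lines: lengths of the coding transcripts). The 4T1 libraries lie at 758 to 807 bases and the epithelial libraries at 975 to 1151 bases.

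Across the 5 groups in TPM, distal epithelium was highest for 8 genes. TPM carried no scaling between libraries, so this order of groups holds for that scale only. The 12 AT2 genes alone summed to 342000 to 406000 TPM in distal epithelium, against 21900 to 29000 TPM in niche epithelium. By TMM-scaled CPM, Pdpn averaged highest in distal epithelium, at 103.3, against 96.45 in shSox9 niche and 77.91 in niche epithelium. How many of all genes were highest in distal epithelium was not counted. Ager was at 711 ± 109 TPM in shSox9 niche epithelium, 256 ± 69.0 TPM in niche epithelium, 3012 ± 230 TPM in distal epithelium, 3.54 ± 1.62 TPM in 4T1 cells in vivo and 0.197 ± 0.0681 TPM in vitro (SD, n = 3 each), and no neighbours in the order of these levels overlapped. Hopx, Clic5 and Igfbp2 had overlapping levels in the shSox9 niche and niche groups, with Hopx at 14.97 ± 3.43 and 15.02 ± 1.63 TPM. Akap5 was apart between the 3 epithelial groups, at 5.59 ± 0.989 TPM in shSox9 niche, 3.01 ± 0.682 TPM in niche and 22.7 ± 4.63 TPM in distal epithelium. Pdpn was at 89.8 ± 13.5 TPM in shSox9 niche, 72.7 ± 17.8 TPM in niche and 65.0 ± 15.4 TPM in distal epithelium, and each neighbouring pair overlapped. Emp2 had its lowest 3 groups in an overlapping run, at 75.4 ± 7.19 TPM in 4T1 cells in vivo, 63.0 ± 11.9 TPM in vitro and 72.6 ± 4.28 TPM in niche epithelium. Rtkn2 was lowest in the niche groups, at 1.73 ± 0.0416 TPM in shSox9 niche and 1.48 ± 0.554 TPM in niche epithelium, below both 4T1 groups, at 5.63 ± 0.443 TPM in vivo and 5.39 ± 1.04 TPM in vitro. Cav1 overlapped between shSox9 niche epithelium, niche epithelium and 4T1 cells in vitro, at 29.5 ± 5.88, 23.9 ± 2.71 and 27.7 ± 7.49 TPM in those groups.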

How the data were processed

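The authors assigned reads to transcripts with RSEM on GRCm38. That is per the submitters' processing notes, which also name DESeq2 but neither the aligner, the annotation nor the strand setting. RSEM's deposited expected counts split reads shared between genes, and 11.8% to 14.1% of genes per library had fractional values. The deposited TPM values are scaled for transcript length by the authors' RSEM run, and its weighted length was read from the same tables. Symbols came from GENCODE M21 (54809 of 54838 identifiers matched).

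Expected counts were rounded and tested in R 4.3.3 with edgeR 4.0.16 (filterByExpr, TMM scaling and the quasi-likelihood F-test, p-values adjusted by Benjamini-Hochberg across every gene in the fit, called under 0.05). The 9 epithelial libraries, the 6 libraries of 4T1 cells and all 15 libraries were fitted apart. Alternatives used DESeq2 1.42.0, limma 3.58.1 on log2(TPM + 1), upper-quartile scaling, no filter, each library left out, a replicate block, only the libraries compared, and subtraction of a 4T1 part. CPM are TMM-scaled, as mean ± SD. The edgeR (all scalings, filters and the block), DESeq2 and limma fits were tested on simulated counts with known fold changes; limma was given scaled counts there, and the subtraction was not tested. Library pairs within a group had a chi-square per degree of freedom between 8.27 and 43.4, so each was counted. Replicate letters in the titles pair the shSox9 niche and niche libraries (correlations of deviations 0.291, 0.211 and 0.280); no other comparison met that rule. Whether 4T1 replicates are separate cultures or animals is not stated, so those p-values measure spread between libraries. The 10 genes, the other lists and the tests were chosen with earlier results of these data known. All 10 genes were named; of other lists, up to 4 called genes with the largest change (mean of at least 5 CPM) and 2 uncalled ones in niche over distal epithelium, and up to 2 called ones elsewhere. The planned 4T1 panel (at least 20 CPM in every 4T1 library, at most 0.2 in every distal one) held 1 gene, so a panel with a limit of 1 CPM was added after seeing the data.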

Additional observations from a re-analysis of the deposited data

How the results depend on the processing

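Of the single-gene results, 691 values under the alternatives kept direction and side of the threshold, 10 came to pass it and 26 changed sign. On log2(TPM + 1), Pdpn was at 0.16 in niche over distal and 0.47 in shSox9 niche over distal epithelium, Hopx at -0.02 in shSox9 niche over niche epithelium, Rtkn2 at 0.06 in 4T1 cells in vivo over in vitro, Aqp5 at 0.44 in 4T1 cells in vivo over niche epithelium and at 0.27 in vitro over distal epithelium. With the 14-gene 4T1 part subtracted, Pdpn was at 0.04 (niche) and 0.25 (shSox9 niche) over distal epithelium and Hopx at -0.09 in shSox9 niche over niche epithelium, or -0.05 with the planned panel. Emp2 in 4T1 cells in vivo over niche epithelium was at -0.09 with DESeq2 and -0.01 without the filter. Hopx was at -0.01 with only the 6 libraries and a replicate block. The log2(TPM + 1) values carried no scaling between libraries. On that scale the median gene stood 0.48 higher in niche and 0.44 higher in shSox9 niche than in distal epithelium, against 0.0226 and -0.0047 by edgeR. For 4T1 cells in vitro over distal epithelium the median gene was at 0.02 on that scale, against -0.564 by edgeR. The cause of each sign change was not tested.

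With each library left out in turn, shSox9 niche over niche epithelium gave 2238 (without niche replicate 1) to 4224 called genes, against 3616. Hopx there ranged from -0.24 to 0.17 and Igfbp2 from -0.45 to 0.35. Pdpn ranged from -0.18 to 0.06 in shSox9 niche over distal epithelium, Rtkn2 from -0.17 to 0.09 in 4T1 cells in vivo over in vitro, and Emp2 from -0.04 to 0.04 and Aqp5 from -0.29 to 0.19 in 4T1 cells in vivo over niche epithelium. The 4T1 share of niche libraries was 3.45% with the planned panel of 1 gene, 8.09% with limits of 10 and 0.1 CPM, and 20% with either added panel (limits of 20 and 1, and of 20 and 2 CPM). The shSox9 niche share was 0%, 9.27%, 16.6% and 17.3% under these panels in the same order of limits (20 and 0.2, 10 and 0.1, 20 and 1, 20 and 2 CPM), so that shSox9 niche minus niche was -3.45, 1.18, -3.43 and -2.70 percentage points and changed sign with limits of 10 and 0.1. In that order of panels, the shSox9 niche share was lower in 2, 1, 3 and 2 of the 3 letter pairs. Limits of 50 and 0.5 CPM left no gene.

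The replicate block changed 1 AT1 call in the comparison whose letters pair, Cav1 (edgeR adjusted p = 0.033), and gave 3638 calls over all genes. Where the letters do not pair, it gave 9500 calls in niche and 7692 in shSox9 niche over distal epithelium, 7487 in 4T1 cells in vivo over in vitro, 11906 in 4T1 cells in vivo over niche epithelium and 14868 in vitro over distal epithelium. Emp2 in 4T1 cells in vivo over in vitro had an edgeR adjusted p of 0.05 under it. At 3 counts per library the floor was 0.0986 to 0.189 CPM, which limits what can be said of Hopx, Pdpn, Clic5 and Igfbp2 in 4T1 cells.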

Other observations

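Airway genes were also lower in niche epithelium. All 5 club cell genes were lower than in distal epithelium, with a median log2 fold change of -3.47 and Cyp2f2, a cytochrome P450 of club cells, at -4.63 (edgeR adjusted p = 7.7e-07). All 5 ciliated cell genes were lower, with Foxj1, the master factor of motile cilia, at 6.77 ± 3.29 CPM in niche epithelium and 62.6 ± 8.99 CPM in distal epithelium (SD, n = 3 each; edgeR adjusted p = 3.3e-06). Foxj1 was lower still under the shSox9 label, at 0.438 ± 0.024 CPM in shSox9 niche epithelium and 6.77 ± 3.29 CPM in niche epithelium (edgeR adjusted p = 0.00012). Ciliated genes thus did not share the direction of Ager there, with 3 of 5 lower and none higher.

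Basal cell genes were split. In niche epithelium, Krt14 (log2 fold change 4.06) and the nerve growth factor receptor Ngfr (2.39) were higher and Krt15 was lower (-2.63; edgeR adjusted p at most 0.0029), whereas Trp63, the factor that defines basal cells, was at 2.57 ± 0.616 CPM in niche epithelium and 4.27 ± 1.17 CPM in distal epithelium and did not pass (edgeR adjusted p = 0.16). Krt5, below the 5 CPM set for naming genes, was lower too (-6.25, edgeR adjusted p = 0.0012). It averaged 0.029 ± 0.0502 CPM in niche epithelium and 2.91 ± 2.92 CPM in distal epithelium. Krt14 and Ngfr were higher in 4T1 cells in vivo than in vitro as well, by 1.39 and 1.35 (edgeR adjusted p at most 0.0014). They averaged 36.2 ± 6.30 and 16.1 ± 2.28 CPM in 4T1 cells in vivo, and the part of these cells in the niche values was not tested. Ccn2, a YAP target gene of the transitional list, averaged 6.37 ± 0.396 CPM in 4T1 cells in vivo and 89.7 ± 8.41 CPM in vitro (SD, n = 3 each; edgeR adjusted p = 1.5e-07). Mesothelin, Msln, was lower in 4T1 cells in vivo by -1.20 on the log2 scale (edgeR adjusted p = 5e-05).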
